A study of Homo sapiens with 4 samples.

Results

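Transcripts of 8 chemokine genes, the CC chemokines CCL2, CCL3, CCL4, CCL5, CCL20, CCL22 and CCL28 and the CX3C chemokine CX3CL1 (fractalkine), were followed in A549, a long-established human cell line of lung carcinoma epithelium, with and without overexpression of SAMD9, an interferon-inducible protein with antiviral activity. These 8, of 58812 genes listed, were a given set of the family, chosen with earlier results of these data known, and were found by matching the Ensembl identifiers of the count tables to gene symbols. A further 19 CC chemokines listed in the tables are described separately. RNA sequencing was done 24 hr after wild type A549 cells received 1 µg of either pCMV6-Entry with no insert (the empty vector, n = 2 libraries) or a plasmid for SAMD9 carrying a Myc-DDK tag (n = 2 libraries). Every group therefore shares the transfection of plasmid DNA, and no untransfected cells were analysed here. The labels do not say that replicates came from separate cultures, so the p-values rest on library-to-library spread alone, and this may be technical.

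Chemokines are small secreted proteins that direct the movement of leukocytes through G protein-coupled receptors, and their families are named after the spacing of the first cysteines. CC chemokines have these cysteines side by side and attract mainly monocytes, T cells, dendritic cells and other mononuclear leukocytes. CX3CL1 is the only human member of its family: it is made as a membrane-bound protein on a mucin-like stalk, where it acts as an adhesion molecule, and is shed by metalloproteinases as a soluble attractant. Many of these genes are silent or low in resting airway epithelium and are switched on through NF-kB and interferon regulatory factors during infection.

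Promoter sequence was looked up for the 8 genes in a RefSeq table (GRCh38.p14), which gives windows from 250 bases before to 50 bases after a start site. It held windows for CCL3, CCL20, CCL22 and CCL28, and no entry was found there for CCL2, CCL4, CCL5 or CX3CL1. Both strands were searched for the NF-kB consensus and for the core of the interferon-stimulated response element (GAAA, then NN, then GAAA, where N is any base). The NF-kB consensus occurred in the windows of CCL20 and CCL22, and in 5.91% of all 35116 windows. The response element core occurred in no window of these 4 genes and in 3.57% of all windows. The 250 bases upstream of the start are shown for the CCL20 and CCL22 windows because they hold the NF-kB match, which is in capitals. The CCL20 stretch is chr2:227813592-227813841 (plus strand), with the match at positions -79 to -70 from the start, where the consensus reads on the opposite strand. The CCL22 stretch is chr16:57358533-57358782 (plus strand), with the match at positions -185 to -176.
CCL20: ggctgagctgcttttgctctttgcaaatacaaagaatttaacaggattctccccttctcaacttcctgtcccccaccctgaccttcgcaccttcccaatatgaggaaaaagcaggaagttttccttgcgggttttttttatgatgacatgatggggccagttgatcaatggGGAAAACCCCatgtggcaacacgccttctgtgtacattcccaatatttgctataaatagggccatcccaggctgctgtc
CCL22: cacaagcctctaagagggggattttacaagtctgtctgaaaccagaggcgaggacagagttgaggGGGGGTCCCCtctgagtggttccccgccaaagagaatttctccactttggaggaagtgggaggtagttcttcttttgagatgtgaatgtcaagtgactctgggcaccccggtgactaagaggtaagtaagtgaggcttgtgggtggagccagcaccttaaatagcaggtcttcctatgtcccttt
A match is a description of the letters and does not show that a factor binds there.

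Library totals ran from 29301854 to 39670083 counts. SAMD9 itself had 444 and 400 counts in the controls (empty vector) against 220123 and 184350 under SAMD9. Levels are given as CPM, the count scaled to a common library size, with library sizes adjusted by the trimmed mean of M values (TMM). A count of 0 in a library allows up to 3 counts, or between 0.0803 and 0.105 CPM on this scale, and covers counting error only. Even numbers made up 72.9% of the counts from 1 to 20, against 49.7% of large counts, so low counts may hold both mates of a read pair. Their counting error is then larger than it looks. Lower bounds on fold changes that take 3 counts as the floor may then be too high. The libraries had epithelial keratin transcripts and low summed levels of markers of the leukocytes and endothelium that also make these chemokines. KRT8 lay at 3469 ± 241 CPM with empty vector and 4587 ± 122 CPM with SAMD9 (SD, n = 2), although KRT19 had at most 10 counts. The summed level of the 10 leukocyte markers was between 6.24 and 6.83 CPM with empty vector and between 7.19 and 7.45 CPM with SAMD9, with PTPRC and CD3E at 0 counts in 3 of the 4 libraries, and MS4A1 at 0 in all of them. Most of that sum came from CD14 and ITGAM, neither of which was called. CD14 lay at 2.40 ± 0.572 CPM with empty vector and 2.37 ± 0.395 CPM with SAMD9 (SD, n = 2). ITGAM lay at 3.20 ± 0.459 and 4.03 ± 0.320 CPM (SD, n = 2). These levels match or exceed those of the lower chemokine genes. The 4 endothelial markers summed to 1.28 CPM in both empty vector libraries and to between 0.857 and 1.01 CPM with SAMD9. The 5 fibroblast markers summed to between 1.79 and 2.57 CPM and between 6.05 and 6.31 CPM, with DCN at 0 throughout and COL1A1 higher with SAMD9 (log2 fold change 1.60, SE 0.25, edgeR adjusted p = 3.6e-05); their part in the chemokine values was not tested.

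With SAMD9, transcripts of each of the 8 chemokine genes were higher than with empty vector, and in none did the libraries of the groups overlap. So few libraries often separate without a change. The groups also did not overlap in genes that were not called, such as ADAM10 and SDC2. The share of all genes without overlap was not counted. The summed level of the 8 genes went from 19.4 ± 0.166 CPM to 265 ± 47.0 CPM (SD, n = 2). The comparison was an edgeR quasi-likelihood test with Benjamini-Hochberg adjustment over 19814 genes, called below 0.05. By that rule 15.3% of all genes tested were higher and 12.2% were lower. The filter on low counts asked for 0.322 CPM by library totals in at least 2 libraries. CCL2 and CCL20 passed it in both empty vector libraries; among genes that did so, 14.9% of 17970 were called higher. CCL28 passed it in 1 empty vector library and lay just under it in the other. CCL3, CCL4, CCL5, CCL22 and CX3CL1 passed it only through the SAMD9 libraries and so had to differ, which means that their number is no measure of how often such genes respond. In bulk RNA, more cells making a transcript and more transcript per cell cannot be told apart.

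**Figure D1:**
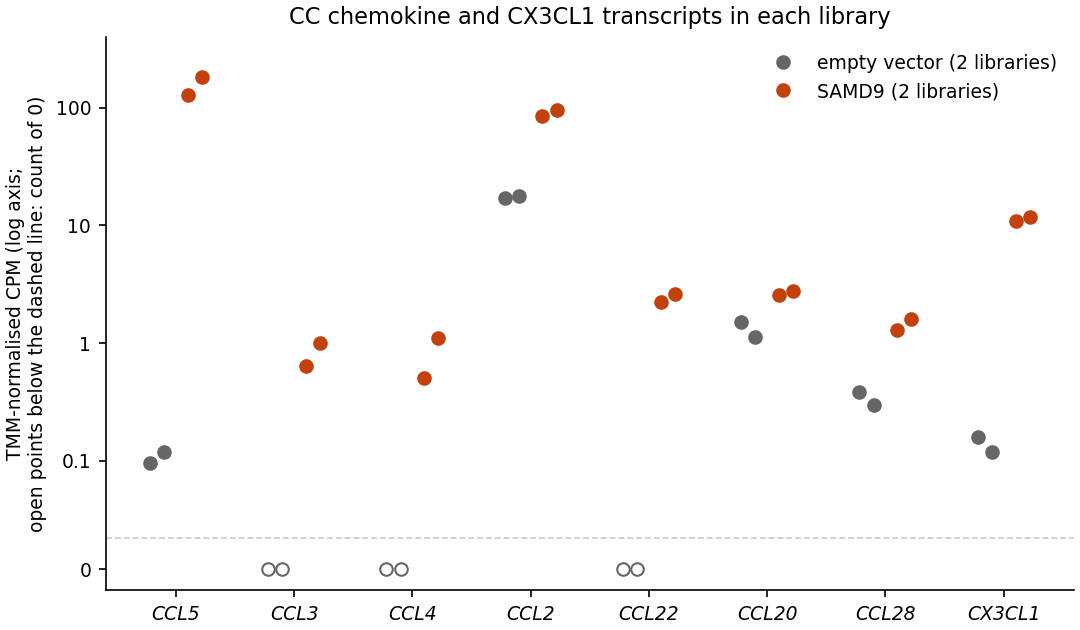
Level of the 8 chemokine genes in each library, as TMM-normalised CPM on a log axis. Grey points are the 2 empty vector libraries, orange points the 2 SAMD9 libraries, and open points under the dashed line are counts of 0. In every gene both orange points lie above both grey points, by the widest margin for CCL5 and the narrowest for CCL20.

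CCL5 (RANTES; ENSG00000271503, chromosome 17, 35871491 to 35880793, minus strand, GRCh38), which attracts T cells and monocytes through receptors that include CCR1 and CCR3, had 3 and 4 counts in the controls (empty vector) against 4820 and 5228 under SAMD9. Near-absent transcripts thus became the most abundant of the 8. The level went from 0.108 ± 0.0167 CPM to 156 ± 37.7 CPM (SD, n = 2), which in log2 terms was a change of 10.44 (SE 0.24, edgeR adjusted p = 6.4e-20). The ratio of pooled counts, scaled by library, was 1410 with an exact 95% interval from 684 to 3508 that covers counting error only. The SAMD9 libraries also differed from each other, at 129 and 182 CPM. Of the 31-base words of its GENCODE 29 transcripts, 21.8% occur in transcripts of other genes, among them the signal recognition particle family Metazoa_SRP, so a part of the gene cannot be read uniquely.

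CCL3 and CCL4 (MIP-1 alpha and MIP-1 beta), typical products of activated macrophages, lie next to each other 13421 bases apart on chromosome 17. CCL3 (ENSG00000277632, 36088256 to 36090169, minus strand) had 0 and 0 counts in the controls (empty vector) against 24 and 29 under SAMD9. Its SAMD9 level of 0.827 ± 0.261 CPM (SD, n = 2) was at least 17.4-fold higher, taking 3 counts over the empty vector group as the floor (edgeR adjusted p = 0.000198). CCL4 (ENSG00000275302, 36103590 to 36105621, plus strand) had 0 and 0 counts and then 19 and 32, or 0.813 ± 0.430 CPM (SD, n = 2), at least 16.7-fold higher (edgeR adjusted p = 0.000295). Both thus had counts in each SAMD9 library and none in the controls, at levels far under that of CCL5.

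The separate values of CCL3 and CCL4 are uncertain because similar copies lie in the same region, CCL3L3 at 107 kb from CCL3 and CCL4L2 at 107 kb from CCL4. CCL3 shares 20.9% of its 31-base words with CCL3L3, and CCL4 shares 19.6% with CCL4L2. CCL3L3 had 2 and 6 counts in the controls (empty vector) against 12 and 37 under SAMD9, too few for the test, so the CCL3 type of transcript was not wholly absent with empty vector. Summed over CCL3 and CCL3L3 there were 2 and 6 counts and then 36 and 66, a ratio of 12.5. This ratio rests on few control counts: it was 24.2 without empty vector replicate 2 (exact 95% interval from 6.53 to 203, counting error only) and 7.81 without SAMD9 replicate 2. CCL4L2 had 0 and 0 and then 13 and 10 counts, at least 7.53-fold higher (edgeR adjusted p = 0.0051); the call was lost without empty vector replicate 1 (adjusted p = 0.0677) or replicate 2 (0.0719), the gene fell under the filter when SAMD9 replicate 1 or 2 was left out, and DESeq2 gave no adjusted p. CCL4L2 passed the filter on low counts only through the SAMD9 libraries and so had to differ. Together CCL4 and CCL4L2 had 32 and 42 counts with SAMD9, at least 24.2-fold higher. CCL3 also shares 1115 of its 1494 listed exonic bases with the antisense gene CCL3-AS1, which had 0 counts in every library. The strand setting of the counting is not given in the sources used here. Whether reads in the shared bases were counted for CCL3 is therefore not known.

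CCL2 (MCP-1; ENSG00000108691, chromosome 17, 34255285 to 34257203, plus strand), the main attractant of CCR2-bearing monocytes, was the only one of the 8 with a sizeable level in control cells. It had 538 and 599 counts in the controls (empty vector) against 3178 and 2735 under SAMD9. The level rose from 17.5 ± 0.497 CPM to 90.3 ± 7.28 CPM (SD, n = 2), or 5.14-fold (log2 fold change 2.36, SE 0.09, edgeR adjusted p = 1.0e-15). None of its 31-base words occurs in another gene.

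CCL22 (MDC; ENSG00000102962, chromosome 16, 57358772 to 57366190, plus strand), a ligand of CCR4 that attracts regulatory and type 2 helper T cells, had 0 and 0 counts in the controls (empty vector) against 83 and 75 under SAMD9. Its SAMD9 level was 2.42 ± 0.278 CPM (SD, n = 2), at least 51.7-fold higher (edgeR adjusted p = 8.6e-08). The 2 SAMD9 libraries were close to each other, and detection rested on both of them.

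CCL20 (MIP-3 alpha; ENSG00000115009, chromosome 2, 227813842 to 227817564, plus strand), the ligand of CCR6 on dendritic cells and type 17 helper T cells, changed least. It had 47 and 38 counts in the controls (empty vector) against 96 and 80 under SAMD9. The level rose from 1.32 ± 0.259 CPM to 2.68 ± 0.155 CPM (SD, n = 2), or 2.03-fold (log2 fold change 1.02, SE 0.32, edgeR adjusted p = 0.0207). This call was lost without empty vector replicate 2 (0.84, adjusted p = 0.0906), without SAMD9 replicate 2 (0.97, adjusted p = 0.0782) and with DESeq2 (1.03, adjusted p = 0.0567), all in the same direction.

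CCL28 (MEC; ENSG00000151882, chromosome 5, 43376645 to 43412391, minus strand), a mucosal epithelial chemokine read by CCR10 and CCR3, had 12 and 10 counts in the controls (empty vector) against 48 and 46 under SAMD9. It rose from 0.341 ± 0.0598 CPM to 1.45 ± 0.226 CPM (SD, n = 2), with a log2 fold change of 2.07 and an SE of 0.53 (edgeR adjusted p = 0.00484). It stayed a low transcript in both groups.

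CX3CL1 (ENSG00000006210, chromosome 16, 57372458 to 57385048, plus strand), the ligand of CX3CR1 on monocytes, natural killer cells and cytotoxic T cells, had 5 and 4 counts in the controls (empty vector) against 404 and 338 under SAMD9. The level rose from 0.139 ± 0.0285 CPM to 11.3 ± 0.687 CPM (SD, n = 2), which in log2 terms was a change of 6.31 (SE 0.30, edgeR adjusted p = 1.1e-13). The ratio of pooled counts was 81.0 with an exact 95% interval from 42.4 to 178. After CCL5 this was the largest fitted change among the genes with counts in both groups.

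Per kilobase of listed gene length, which allows only a rough comparison between genes, the order of the 8 differed between the groups. Levels on this scale are TMM-normalised RPKM, the CPM per kilobase. The listed length may exceed that of the transcript made, so close ranks depend on it. CCL4 is listed as 1 exon of 2032 bases over its whole span, and CX3CL1 has 5983 bases. By CPM, CX3CL1 lay above CCL20 with SAMD9, at 11.3 against 2.68. With empty vector CCL2 led at 15.4 ± 0.437 RPKM, followed by CCL20 at 0.981 ± 0.193, CCL28 at 0.0753 ± 0.0132, CCL5 at 0.0711 ± 0.0110 and CX3CL1 at 0.0233 ± 0.00476 (SD, n = 2), with CCL3, CCL4 and CCL22 at 0. CCL28 and CCL5 overlapped in that order and the other neighbours with counts did not. With SAMD9 CCL5 led at 103 ± 24.9 RPKM, followed by CCL2 at 79.4 ± 6.40, CCL20 at 2.00 ± 0.116, CX3CL1 at 1.89 ± 0.115, CCL22 at 0.826 ± 0.0950, CCL3 at 0.554 ± 0.175, CCL4 at 0.400 ± 0.211 and CCL28 at 0.319 ± 0.0499 (SD, n = 2). Here CCL20 overlapped with CX3CL1, CCL3 with CCL4, and CCL4 with CCL28.

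The make-up of the 8 transcripts thus went from one dominated by CCL2 to one shared by CCL2 and CCL5. Of the summed counts per kilobase, CCL2 took 92.1% and 94.0% in controls but 45.2% and 39.8% under SAMD9. CCL5 took 0.386% and 0.472% and then 51.5% and 57.2%. Within a library, CCL5 per kilobase was 0.00419 and 0.00502 of CCL2 with empty vector and 1.14 and 1.44 of it with SAMD9. This ratio needs no scaling between libraries and shows that these genes changed unequally, not that CCL2 was steady. CCL20 went from 6.81% and 5.05% to 1.16% and 0.985% although its own level was higher.

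**Figure D2:**
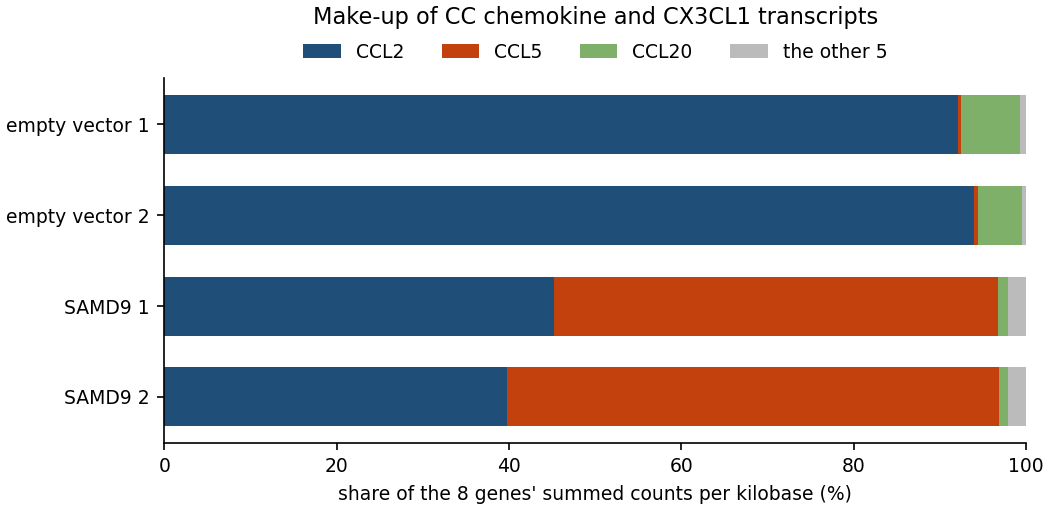
Share of each gene in the 8 genes' summed counts per kilobase (percent), 1 bar per library. CCL2 fills 92.1% and 94.0% of the empty vector bars, whereas CCL5 takes 51.5% and 57.2% of the SAMD9 bars.

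Most of the other CC chemokines stayed near zero. The exceptions were CCL3L3, CCL4L2 and CCL26. With SAMD9, CCL3L3 lay at 0.806 ± 0.685 CPM (SD, n = 2), a mean level near those of CCL3 and CCL4. Of 21 further CC chemokine genes looked for, 19 were listed in the tables, 9 of these had 0 counts in all 4 libraries and 16 had at most 10 counts in every library. Counts of 0 throughout were found for CCL1, CCL7, CCL11, CCL13, CCL14, CCL16, CCL18, CCL25 and CCL27. CCL8, another monocyte attractant, had 0 and 0 counts in the controls (empty vector) against 4 and 4 under SAMD9, and CCL17, which shares CCR4 with CCL22, had 0 and 0 and then 5 and 4. CCL26 (eotaxin-3) had 12 and 12 counts and then 36 and 6, so its SAMD9 libraries lay on either side of the controls (log2 fold change 0.69, SE 0.71, edgeR adjusted p = 0.54). The sum of the 19 genes was 0.479 and 0.537 CPM with empty vector and 2.09 and 2.13 CPM with SAMD9, most of it from CCL3L3, CCL4L2 and CCL26.

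CC chemokine genes lie in clusters, and listed neighbours did not follow uniformly. Over all genes tested, 15.3% were called higher and 12.2% lower. Few genes were tested around each chemokine gene, so the counts of calls below are description and no result about these regions. CCL7, 13018 bases from CCL2, had no counts in any library. CX3CL1 lies 6268 bases from CCL22 and 19719 bases from CCL17, and in the SAMD9 libraries CX3CL1 had 404 and 338 counts, CCL22 83 and 75, and CCL17 5 and 4. Within 250 kb of the CX3CL1 start site, 12 genes were tested and 2 were called higher, CCL22 and RSPRY1, of which RSPRY1 changed by 0.36 on the log2 scale (SE 0.07, edgeR adjusted p = 0.000714), and 2 were called lower, DOK4 (-0.28) and ADGRG1 (-0.24). Around CCL5, 3 of 15 tested genes were called higher, namely CCL3, CCL4 and HEATR9, and RDM1 was called lower (-1.02). HEATR9, 2600 bases from CCL5, had 11 and 15 counts and then 57 and 28 (log2 fold change 1.64, SE 0.54, edgeR adjusted p = 0.0258); the call was lost without empty vector replicate 1 (adjusted p = 0.0817), without SAMD9 replicate 1 (0.292) and with DESeq2 (0.0538). Around CCL20 neither of the 2 tested genes was called. Around CCL28, 2 of 13 tested genes were called higher, HMGCS1 by 0.59 (SE 0.06, edgeR adjusted p = 4.6e-08) and PAIP1 by 0.20 (SE 0.06, adjusted p = 0.0242), whereas the adjacent TMEM267 was not called (0.30, SE 0.14, adjusted p = 0.13). Around CCL2, 1 of 2 tested genes was called higher, the pseudogene TLK2P1 (0.95, SE 0.17, edgeR adjusted p = 0.000152). Calls of 5 of these neighbours, RDM1, DOK4, ADGRG1, PAIP1 and RSPRY1, depended on 1 library or on the scaling: without SAMD9 replicate 1 and without SAMD9 replicate 2 the calls of RDM1 (adjusted p = 0.109 and 0.11), DOK4 (0.0609 and 0.214), ADGRG1 (0.063 and 0.0936) and PAIP1 (0.165 and 0.158) were lost, and without empty vector replicate 2 those of RDM1 (0.297) and DOK4 (0.449). RDM1 (0.113) and DOK4 (0.0686) were not called with DESeq2, and RSPRY1 (0.0723) and PAIP1 (0.936) were not called under scaling by library totals.

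**Figure D3:**
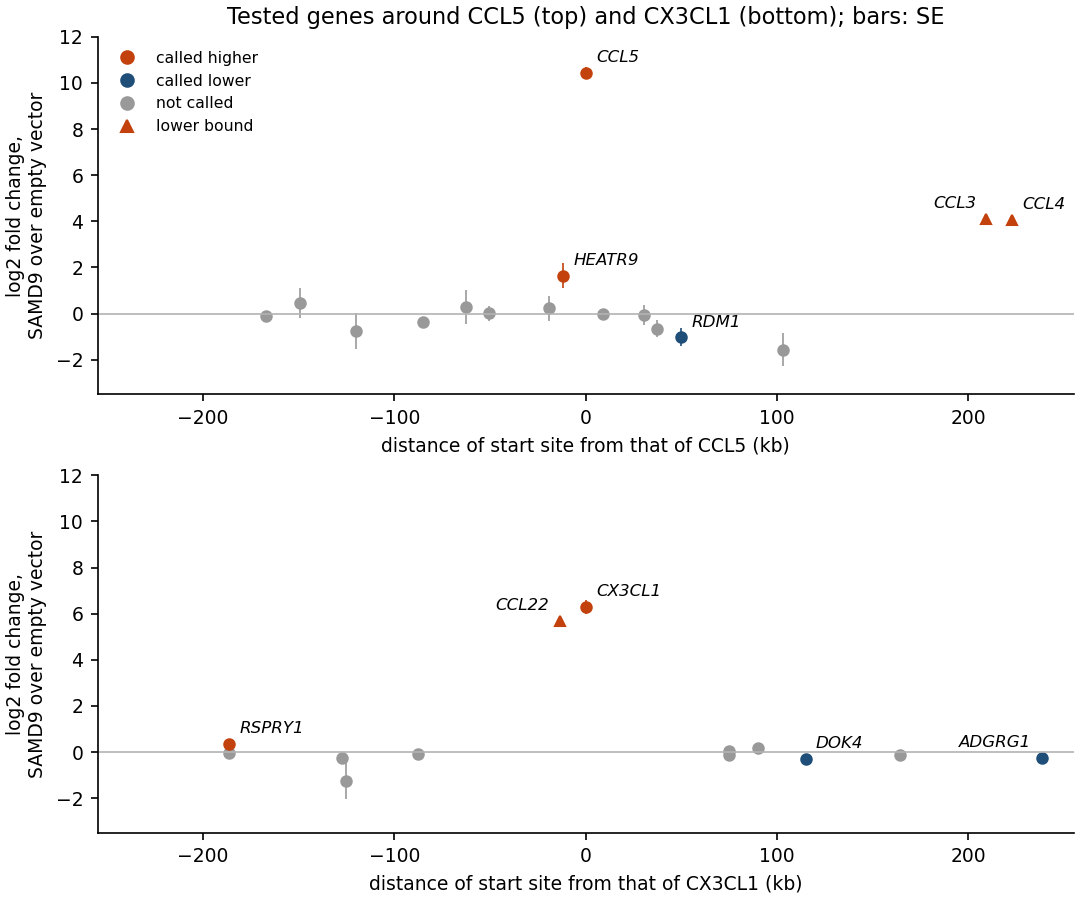
Log2 fold change (SAMD9 over empty vector, bars: SE) of each tested gene within 250 kb of the CCL5 start (top) and the CX3CL1 start (bottom), by distance in kb; triangles are lower bounds for genes at 0 counts with empty vector. CCL5 at 10.44 and CX3CL1 at 6.31 stand above neighbouring genes that are no chemokines, of which HEATR9 at 1.64 is the highest.

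CXC chemokines, which attract neutrophils or activated T cells, were measured in the same fit for comparison. Of 19 CXC and XC genes 8 were tested, and these 8 were called higher, of which 6 passed the filter on low counts in both empty vector libraries. Among all genes that did so, 14.9% were called higher. CXCL10 and CXCL11 passed the filter only through the SAMD9 libraries. CXCL10, an attractant of CXCR3-bearing T cells, had 0 and 0 counts and then 1358 and 1649, and was at least 985-fold higher. CXCL11, of the same type, had 0 and 2 counts and then 1051 and 942. The neutrophil attractant CXCL1 rose by 2.80 (SE 0.09, edgeR adjusted p = 4.2e-17) and CXCL3 also by 2.80 (SE 0.10, adjusted p = 1.6e-16) on the log2 scale. Both families therefore held genes at or near 0 counts in control cells and genes with a baseline level.

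The receptors of these chemokines were scarcely detected. Of 15 receptor genes 9 had at most 10 counts in every library, and those at 0 counts throughout included CCR2, CCR6, CCR8 and the scavenging receptor ACKR1. CX3CR1 had 16 and 2 counts in the controls (empty vector) against 0 and 4 under SAMD9, too few to test, and CCR1 had 0 and 0 and then 11 and 26. ACKR4, a scavenger of CCL19, CCL21 and CCL25, went from 2 and 5 counts to 33 and 18 (log2 fold change 2.78, SE 0.79, edgeR adjusted p = 0.0103), a call lost without empty vector replicate 1 (adjusted p = 0.0844) or SAMD9 replicate 1 (0.178). ACKR4 passed the filter on low counts only through the SAMD9 libraries and so had to differ. CCR7, the lymph node homing receptor, went from 27 and 39 counts to 7 and 12 (-1.76, SE 0.62, edgeR adjusted p = 0.0383). That call was lost without empty vector replicate 1 (adjusted p = 0.0613) or 2 (0.257), without SAMD9 replicate 1 (0.238) and with DESeq2 (0.0769).

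Genes whose products shed, trim or bind chemokines were mixed: 4 of 10 were higher and 3 lower, with a median log2 fold change of 0.11, against -0.01 over all genes tested. Of all genes tested, 15.3% were called higher and 12.2% lower. ADAM17, a sheddase of CX3CL1, rose from 59.6 ± 5.82 CPM to 86.4 ± 1.33 CPM (SD, n = 2; log2 fold change 0.54, SE 0.08, edgeR adjusted p = 1.2e-05), whereas ADAM10, the other sheddase, lay at 180 ± 0.784 and 187 ± 4.02 CPM (0.06, SE 0.06, adjusted p = 0.55). The heparan sulfate carrier SDC4 rose by 1.27 (SE 0.07, adjusted p = 1.0e-12) and the heparan sulfate polymerase EXT1 by 1.26 (SE 0.08, adjusted p = 1.3e-11). SDC1, HSPG2 and NDST1 were lower by small amounts, at -0.35, -0.22 and -0.32, and none of the 3 calls held without SAMD9 replicate 2 (adjusted p = 0.0632, 0.12 and 0.0856). DPP4, a peptidase that trims CCL5 and CCL22, had 10 and 6 counts and then 35 and 24 (1.83, SE 0.65, adjusted p = 0.0387); the call was lost with any 1 library left out (adjusted p from 0.0532 to 0.237), with DESeq2 (0.0809) and with the replicate block (0.0557).

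Transcription factors known to act on chemokine promoters were called higher in 13 of 17 cases and lower in none, with a median of 1.05. All 17 passed the filter on low counts in both empty vector libraries, and 14.9% of all genes that did so were called higher. The list was chosen with earlier results of these data known. IRF7 rose by 4.95 (SE 0.08, edgeR adjusted p = 5.1e-23), IRF1 by 4.48 (SE 0.07, adjusted p = 5.2e-23) and STAT2 by 4.12 (SE 0.07, adjusted p = 2.0e-22) on the log2 scale. NF-kB subunit genes changed less: NFKB2 by 1.21 (SE 0.06), RELA by 1.13 (SE 0.06), RELB by 1.05 (SE 0.07) and NFKB1 by 0.79 (SE 0.08), with the largest adjusted p at 2.0e-08. REL, at 0.30 (SE 0.11, adjusted p = 0.0361), was not called without empty vector replicate 2 (adjusted p = 0.124) or SAMD9 replicate 1 (0.354), with DESeq2 (0.0732) or under scaling by library totals (0.435). IRF3, IRF5, ATF2 and SP1 were not called, with log2 fold changes of 0.13, 0.25, 0.16 and 0.14; IRF3 was called higher without empty vector replicate 2 (adjusted p = 0.0451), and ATF2 and SP1 without empty vector replicate 1 (0.00952 and 0.000357).

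**Figure D4:**
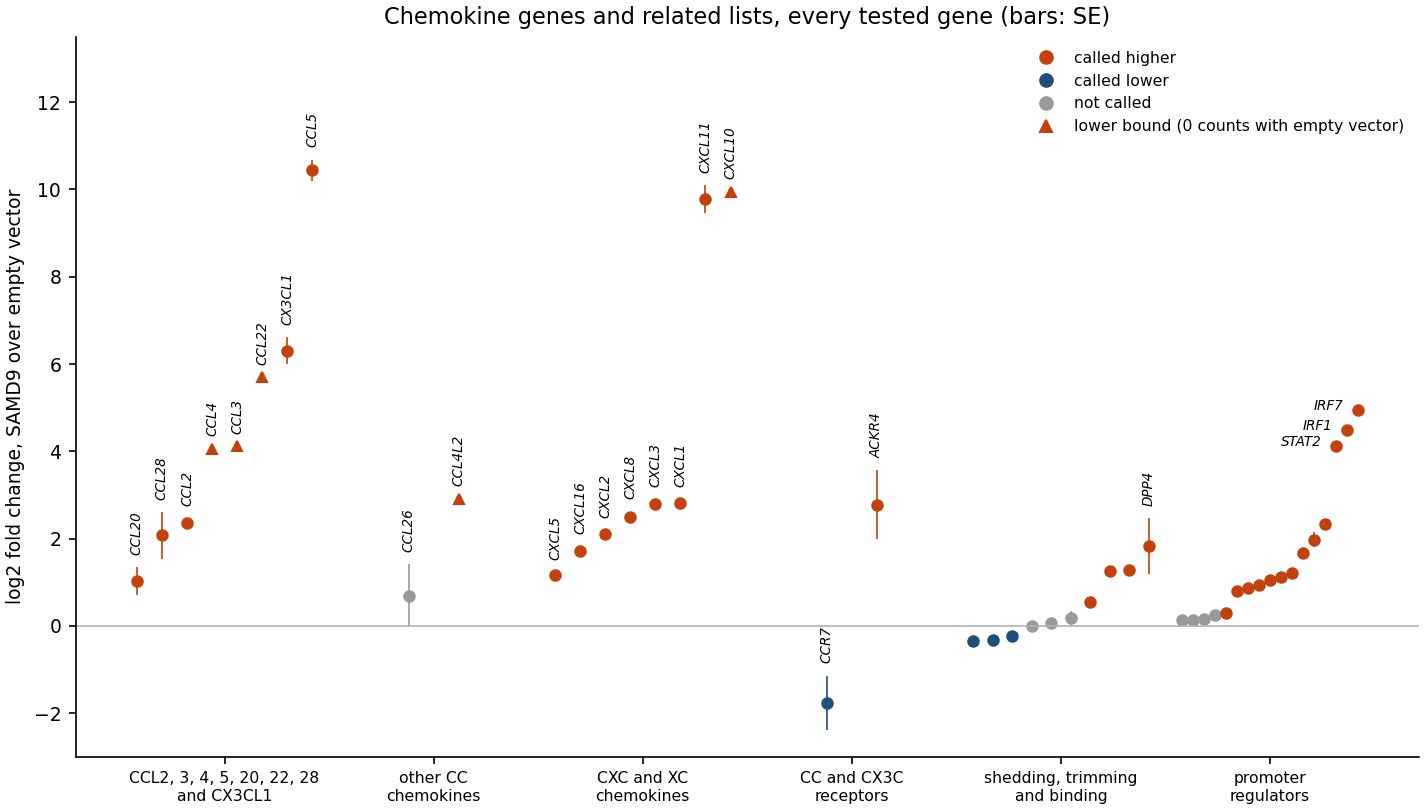
Log2 fold change (SAMD9 over empty vector, bars: SE) of every tested gene in the 8 chemokine genes and 5 related lists; triangles are lower bounds for genes at 0 counts with empty vector, and the CXCL11 value is fitted from 2 such counts. The 8 genes span from 1.02 (CCL20) to 10.44 (CCL5), and the receptors, of which 2 were tested, lie on both sides of 0. CCL3, CCL4, CCL5, CCL22, CX3CL1, CCL4L2, CXCL10, CXCL11 and ACKR4 passed the filter on low counts only through the SAMD9 libraries. These genes had to differ.

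For each of the 8 genes, the 3 tested genes with the nearest profile were sought by Euclidean distance between log2 CPM values over the 4 libraries (1 count added); with so few libraries this mainly finds genes of the same level in both groups. Nearest to CCL5 were GBP4, an interferon-inducible GTPase gene (distance 0.745), IDO1, the tryptophan-degrading enzyme gene (1.08), and IFNL2, an interferon lambda gene (1.76). IDO1 had 2 and 4 counts and then 3168 and 3017. Nearest to CX3CL1 were SMTNL1 (0.597), the epoxygenase gene CYP2J2 (0.689) and the cytokine gene IL6 (0.914), which had 4 and 2 counts and then 458 and 458. CCL2 lay nearest to the complement protease gene C1S (0.0987), at 539 and 572 counts and then 3034 and 2680, to complement C3 (0.369) and to BLZF1 (0.381).

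The low-count genes had neighbours of similar counts. CCL22 lay nearest to PRR20G (0.765), NRIR (1.06) and RTP4 (1.12), the last with 0 and 0 counts and then 157 and 118. RBM7P1 (0.329) and AVPR1A (0.351) were among the 3 nearest to CCL28, and CCL20 lay nearest to RPH3A (0.162), CHKB-DT (0.172) and PDZK1IP1 (0.274). CCL3 and CCL4 had the same 3 neighbours: CSNK1G2P1, at 0 and 0 counts and then 23 and 34, HCAR3, at 0 and 0 and then 23 and 37, and MTND4P14, at 0 and 0 and then 20 and 20.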

How the data were processed

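The authors deposited, per the file headers, 1 table per library with raw counts per gene and CPM and RPKM values made from them; both equalled values recomputed from the counts, and tests used the counts. Alignment and counting tools named in the submitters' processing notes are STAR 2.5.1a and, from Subread, featureCounts 1.4.6-p5, after bcl2fastq, on GRCh38; annotation release and strandedness: not given in the sources used here. Identifiers were matched to symbols through a gene name table (54836 identifiers matched) and GENCODE 29; coordinates are those of the files. Replicates differed beyond sampling noise (chi-square per degree of freedom 9.35 and 5.00).

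The count test was that of edgeR 4.0.16 (R 4.3.3): filterByExpr (minimum count 10, minimum total 15), TMM factors from 0.932 to 1.07, quasi-likelihood F-test with no covariate, Benjamini-Hochberg adjustment over 19814 genes. SE is the absolute log2 fold change over the square root of F. An exact permutation test of 2 against 2 libraries cannot go below 0.333. The fit was tested on simulated data, but the outcome is not reported here and lends the calls no weight. Alternatives were DESeq2 1.42.0, library totals, no filter, the replicate number as a block, and each library left out. The 8 genes and the lists were chosen with earlier results of these data known. Named genes are the 8, the listed genes, those with the nearest profiles and adjacent genes; RSPRY1, DOK4, ADGRG1, RDM1, HMGCS1, PAIP1 and TLK2P1 were named after their values were seen. A planned look at protein sequences was not made. Values of some listed genes are not reported here.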

Additional observations from a re-analysis of the deposited data

How the results depend on the processing

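The 8 chemokine genes stayed higher in direction under every alternative run (DESeq2, library totals, no filter, the replicate block and leaving out each library); 8 were called under each of these except DESeq2 and the fits without empty vector replicate 2 or SAMD9 replicate 2, where 7 were, CCL20 being the one lost. Leaving out 1 library gave 7 to 8 calls. With the replicate block 8 were called, and over all genes 2914 were higher and 2330 lower. The labels share only a number (correlation of replicate differences across genes 0.0101, with 2 pairs). The block ended the calls of DPP4 (edgeR adjusted p = 0.0557), RDM1 (0.0577) and PDZK1IP1 (0.0501). PDZK1IP1, at an edgeR adjusted p of 0.044 in the main fit, was also not called with library totals (0.0929), no filter (0.0565) or DESeq2 (0.1095). With library totals as the scaling, the median log2 change of all genes moved to -0.19, with 1974 genes higher and 5651 lower, against 3038 and 2420; leaving out 1 library gave 2291 to 3123 higher and 1466 to 2279 lower, the least without SAMD9 replicate 2. Of the other CC chemokines, 1 was called higher, 0 with DESeq2 (CCL4L2, no adjusted p), 2 with no filter and 0 to 1 without 1 library. Of the receptors, 1 was higher, 2 with no filter and 1 to 2 without 1 library, and 1 was lower, 0 with DESeq2 and 0 to 1 without 1 library. Of the shedding, trimming and binding genes, 3 were lower, and 0 without SAMD9 replicate 2. The cause was not tested. A fit without 1 library assumes that the lone library of a group varies like the other group. CCL3, CCL4, CCL5, CCL22 and CX3CL1 passed the filter on low counts only through the SAMD9 libraries. That they were called again in the refits therefore carries little weight. CCL4L2 and ACKR4, the genes called higher in their lists, also passed the filter only through the SAMD9 libraries. In the controls, CCL3, CCL4 and CCL22 at 0 counts are known only to lie under 0.0958 CPM in each library, with 3 counts as the floor. The control levels of CCL5 and CX3CL1 rest on 3 to 5 counts. The lower bounds move with the libraries behind them: with 1 library left out they ran from 8.38 to 21.9 for CCL3, 8.07 to 24.1 for CCL4, 25.0 to 56.5 for CCL22, 3.64 to 7.54 for CCL4L2 and 11.7 to 31.7 for CCL4 with CCL4L2, lowest without empty vector replicate 2.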
